A study of Mus musculus with 2 samples.

Results

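The genes described here are those of the conjugating (phase II) enzymes and the carboxylesterases on a pair of Affymetrix Mouse Genome arrays, namely the UDP-glucuronosyltransferases (Ugt1 and Ugt2), the glutathione S-transferases (Gst, with the microsomal Mgst), the cytosolic sulfotransferases (Sult) and the carboxylesterases (Ces). Members were chosen by gene symbol alone, each represented by its brightest probe set among those naming 1 gene, where brightness is the mean of both arrays. This gave 57 members of 18194 genes named on the arrays. Labelled total RNA of biopsies from the colon (1 array) and from the small intestine (1 array) of wild-type adult Mus musculus was hybridised, and neither tissue was treated. The labels give no strain, no position along the intestine and no number of animals. With 1 array per tissue no difference has a replicate check, no test was possible and no p-value is given. Levels are log2 expression values as deposited. A level of 5 or less is called background, and a difference was counted where it reached 3-fold after values below 5 had been raised to 5. The level of a probe set depends on its own probes, so each member is compared between tissues and not with other members.

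Conjugation makes a drug, a dietary compound or a product of the body itself more soluble in water by attaching a sugar acid, a sulfate or glutathione to it. UDP-glucuronosyltransferases sit in the membrane of the endoplasmic reticulum and use UDP-glucuronic acid, cytosolic sulfotransferases use the activated sulfate PAPS, and glutathione S-transferases join glutathione to electrophiles. Carboxylesterases hydrolyse esters and amides, among them prodrugs and, for some members, neutral lipids. The epithelium of the gut carries all these enzymes and is, with the liver, a main site of first-pass metabolism.

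Both arrays had the markers of the labelled tissue. Of 15 measured markers of small intestinal enterocytes, 14 favoured that tissue by 3-fold or more, with their summed level at 18.07 there and 14.46 in the colon, and 9 of 11 colonocyte markers were higher in the colon, with summed levels of 16.49 there and 12.72 in the small intestine. Summed levels are the log2 of the sum over a list on the linear scale. The 12 pan-epithelial markers differed little (17.41 in small intestinal RNA and 17.20 in colon RNA, 1 of them past 3-fold). Other cell types moved with the tissue. All 11 measured markers of the exocrine pancreas were higher in the colon (15.97 against 8.79), as were 5 of 12 smooth muscle markers (15.38 against 14.29) and 6 of 10 goblet cell markers (17.64 against 16.87), while 6 of 7 Paneth cell markers were higher in the small intestine (17.31 against 15.25). Fibroblast markers (3 of 10 higher in the colon and 2 in the other tissue) and lymphocyte and myeloid markers (4 of 11 higher in the small intestine) moved in part. The part of these cells in the differences below was not tested. Of 13 measured hepatocyte markers, 8 lay at background on both arrays, among them Alb, Fga, Fgb, Fgg and Ahsg. Of the other 5, Ttr was higher in the colon and Cps1 and Serpina1b in the small intestine, and the summed level was 12.42 in colon RNA and 12.69 in small intestinal RNA. In such tissue RNA fewer cells of a type and less RNA per cell cannot be told apart.

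Most members that lay above background did so in both tissues, and those past 3-fold were mostly higher in the colon. Of the 57 members, 41 were above background on at least 1 array and 16 on neither. Higher in the colon were 11 of 57 members (19.3%), namely Ugt2b5, Gsta3, Gstm1, Gstm2, Gstk1, Sult1a1, Sult1c2, Ces1d, Ces1f, Ces1g and Ces2b, where 3.33% of all 18194 genes and 5.49% of the 11016 genes that either array placed above background were. Higher in the small intestine were 3 members (5.26% of the 57), Ugt2a3, Sult2b1 and Ces2e, against 3.46% of all genes, which is near that share. Of genes above background 5.71% were, beside 3 of the 41 members above background. For the colon, the 5.49% of genes above background stand beside 11 of those 41 members. The median floored difference over the 57 members was 0, as it was over all genes, because 16 members were at background. The other 27 members above background did not reach 3-fold after the floor, and for 3 of them (Gstm6, Gstp3 and Ces1c), at background in the colon, the fold is a lower bound. Between probe sets of the same gene, the difference between tissues had an SD of 0.54 on the log2 scale (1.46-fold). It was pooled over 3535 genes with several probe sets above background on both arrays. This SD comes from the same pair of arrays and does not measure variation between arrays or animals.

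**Figure D1:**
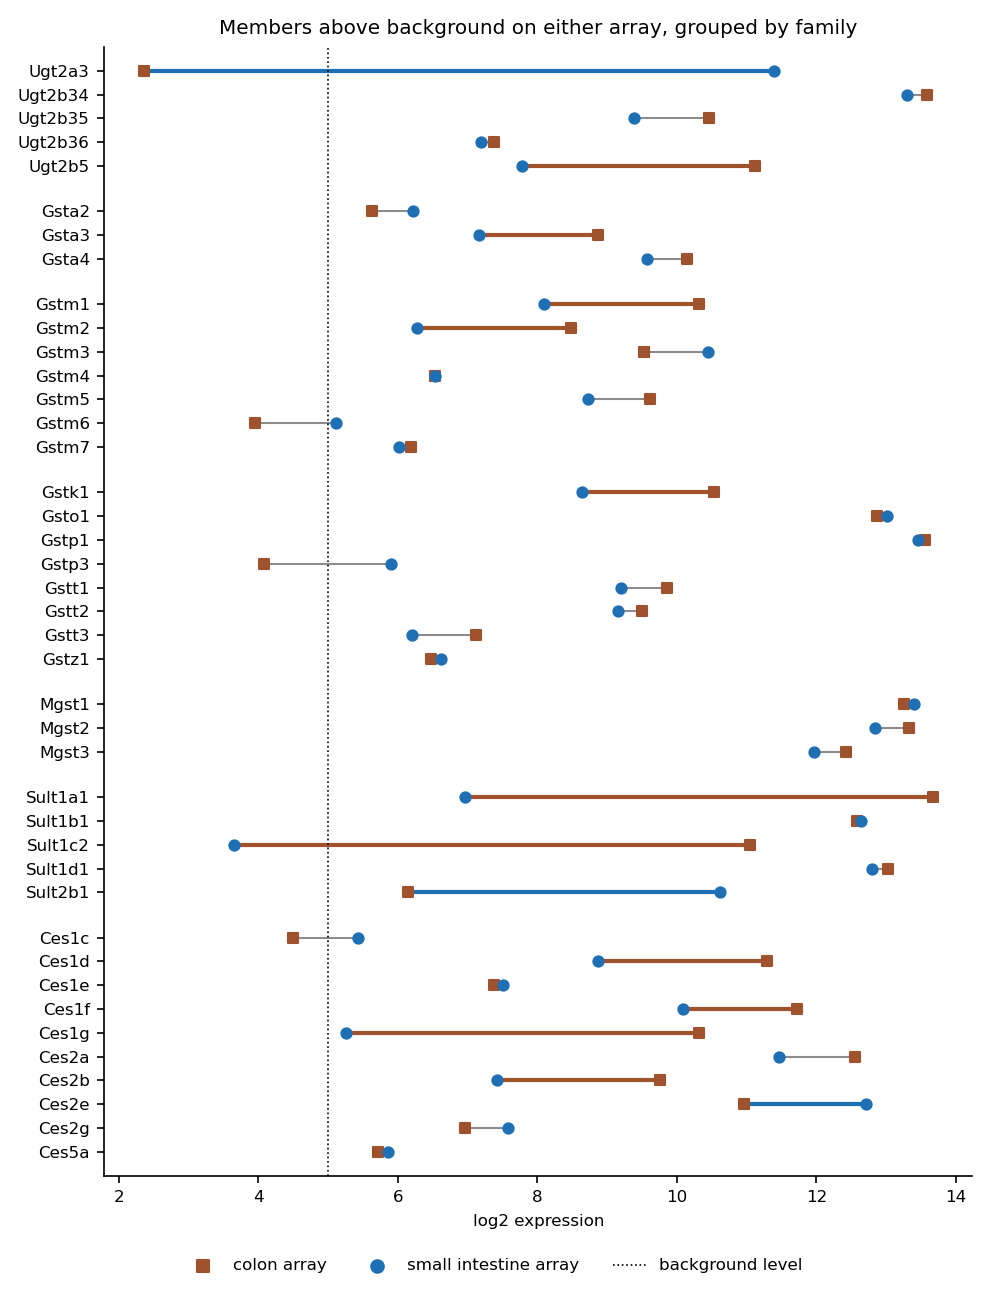
Log2 expression of the 41 members above background on either array, with the colon array as squares and the small intestine array as circles, grouped by family from Ugt2 at the top to Ces at the bottom. Coloured connecting lines mark the 14 members past 3-fold and the dotted line the background level of 5. The longest lines belong to Ugt2a3, Sult1a1 and Sult1c2, whereas those of the microsomal Mgst genes are short.

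Among the UDP-glucuronosyltransferases with a probe set of their own, the members past 3-fold were Ugt2a3, higher in the small intestine, and Ugt2b5, higher in the colon. The sequences of the 250 bases before their annotated starts are shown because these neighbours on chromosome 5 went in opposite directions. They are RefSeq sequences of build GRCm38.p6 (chr5:87337196-87337445, minus strand for Ugt2a3 and chr5:87140341-87140590, minus strand for Ugt2b5), written 5′ to 3′ along the gene. Capitals mark, on either strand, any of 5 motifs that factors acting on such genes are known to bind, namely TGACNNNGC (the core of the antioxidant response element, bound by Nrf2), GTTAAT (a half-site of Hnf1), CAAAGTCCA (a site of Hnf4), GCGTG (the core of the dioxin response element, bound by Ahr) and TATAAA (the TATA box). The window of Ugt2a3 held GTTAAT at 54 and at 47 bases before the start, and that of Ugt2b5 held none of the motifs.
Ugt2a3: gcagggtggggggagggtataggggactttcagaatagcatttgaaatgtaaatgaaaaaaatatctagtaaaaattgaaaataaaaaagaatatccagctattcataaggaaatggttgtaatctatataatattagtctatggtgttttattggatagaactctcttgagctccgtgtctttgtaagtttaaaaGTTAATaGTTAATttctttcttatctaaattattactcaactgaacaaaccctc
Ugt2b5: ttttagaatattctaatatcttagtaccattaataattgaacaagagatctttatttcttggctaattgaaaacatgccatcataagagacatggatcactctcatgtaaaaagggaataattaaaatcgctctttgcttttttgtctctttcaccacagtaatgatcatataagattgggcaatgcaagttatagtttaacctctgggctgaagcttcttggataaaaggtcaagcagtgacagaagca

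Ugt2a3, which conjugates bile acids, had a level of 11.40 in small intestinal RNA and 2.36 in colon RNA, so that it was bright in the former, at background in the latter and differed by at least 84.5-fold. The reverse was seen for Ugt2b5, with 11.12 in colon RNA and 7.79 in small intestinal RNA (10.1-fold higher in the colon). Both values rest on a probe set whose identifier carries no mark of cross-matching. The other Ugt2b enzymes, which act on steroids and xenobiotics, differed less. Ugt2b35 had 10.47 in colon RNA and 9.39 in small intestinal RNA (2.11-fold). For Ugt2b34 the levels were 13.58 and 13.31, and a second probe set of it gave 13.23 and 12.25. Ugt2b36 stood at 7.38 and 7.19. All 3 were thus above background in both tissues, at less than 3-fold. Ugt2b1, Ugt2b37 and Ugt2b38 were at background on both arrays. The median floored difference of the 8 Ugt2 members was -0.10.

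No Ugt1 gene had a probe set of its own. The Ugt1a enzymes, which include the one that conjugates bilirubin, are made from a locus in which each first exon is joined to the same further exons, and 3 probe sets name the same 8 genes (Ugt1a1, Ugt1a2, Ugt1a5, Ugt1a6a, Ugt1a6b, Ugt1a7c, Ugt1a9 and Ugt1a10). The first of these had 13.88 in colon RNA and 13.68 in small intestinal RNA, the second 12.43 and 11.66, and the third 11.62 and 10.58. All were above background in both tissues and none reached 3-fold, with the colon the higher by 1.15-fold, 1.71-fold and 2.05-fold. Which of the 8 transcripts gave the signal cannot be read from them. A probe set naming Ugt2a1 and Ugt2a2 was at background.

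With values raised to 5, the sulfotransferases held the largest difference of all members, Sult1a1, while that of Ugt2a3 is a lower bound. Windows before the starts of Sult1a1 (chr7:126676419-126676668, minus strand) and Sult1c2 (chr17:53845959-53846208, minus strand), the members with the largest differences in favour of the colon, are given in the same way. That of Sult1a1 held GTTAAT once, 232 bases before the start, and that of Sult1c2 none of the motifs.
Sult1a1: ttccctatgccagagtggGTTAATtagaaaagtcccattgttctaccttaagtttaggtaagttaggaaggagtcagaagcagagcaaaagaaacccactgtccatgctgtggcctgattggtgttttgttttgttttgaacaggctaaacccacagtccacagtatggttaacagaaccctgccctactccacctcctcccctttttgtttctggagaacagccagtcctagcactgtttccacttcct
Sult1c2: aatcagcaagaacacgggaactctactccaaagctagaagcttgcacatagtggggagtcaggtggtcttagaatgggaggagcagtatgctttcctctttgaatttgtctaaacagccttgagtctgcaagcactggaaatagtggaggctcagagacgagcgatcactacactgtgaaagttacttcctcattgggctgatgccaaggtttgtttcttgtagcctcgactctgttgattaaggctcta

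Sult1a1, the main phenol sulfotransferase, had 13.67 in colon RNA and 6.96 in small intestinal RNA. It was above background in both tissues and 105-fold higher in the colon. It is measured by 1 probe set only, of the kind that reports several transcripts of a gene. Sult1c2, also of the phenol type, had 11.05 in colon RNA and 3.65 in small intestinal RNA and was thus at background in the latter, the former being at least 66.2-fold brighter. Sult2b1, which sulfates cholesterol and other hydroxysteroids, went the other way, with 10.61 in small intestinal RNA and 6.15 in colon RNA (a difference of 4.46 on the log2 scale).

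Other sulfotransferases were as bright in both tissues or dark in both. Sult1b1, an enzyme of thyroid hormones and phenols, had 12.58 in colon RNA and 12.63 in small intestinal RNA. Sult1d1, which acts on catecholamines, had 13.03 and 12.79, while its second probe set had 12.34 and 12.71. The sign of Sult1d1 thus depended on the probe set, at less than 1.5-fold in either direction. The remaining 8 of 13 members were at background on both arrays, namely Sult1c1, the oestrogen sulfotransferase Sult1e1, Sult2a2, Sult2a8, Sult3a1, Sult4a1, Sult5a1 and Sult6b1. The Sult2a enzymes are hydroxysteroid and bile acid sulfotransferases.

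The carboxylesterases past 3-fold mostly favoured the colon, but the family as a whole did not. Of its 10 members above background, 5 were brighter in colon RNA and 5 in small intestinal RNA, whatever the size of the difference. The median floored difference of the family was 0. Of 13 members, 4 favoured the colon, 1 the small intestine, 5 were above background but not past 3-fold, and 3 were at background (Ces1h, Ces2f and Ces4a). Beside these counts, 3.33% of all genes favoured the colon and 3.46% the small intestine (5.49% and 5.71% of those above background). The window before the start of Ces1g (chr8:93337210-93337459, minus strand), the esterase with the largest difference, held TATAAA on the opposite strand, 26 bases before the start.
Ces1g: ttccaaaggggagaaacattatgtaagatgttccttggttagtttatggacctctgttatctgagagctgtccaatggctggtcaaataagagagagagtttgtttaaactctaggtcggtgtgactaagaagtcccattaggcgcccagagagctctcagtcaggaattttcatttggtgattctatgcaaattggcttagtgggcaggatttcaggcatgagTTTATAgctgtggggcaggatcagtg

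Ces1g, an esterase with a role in lipid metabolism, had 10.32 in colon RNA and 5.26 in small intestinal RNA, just above background in the latter and 33.4-fold higher in the former. The difference was -5.06 with the floor of 5, a floor of 4 or no floor. With a floor of 6, which is above the level of 5.26, it was -4.32. Ces1d, a triacylglycerol hydrolase, had 11.30 and 8.87 (5.38-fold). Its other probe sets gave 9.95 and 7.36 (a difference of -2.58) and 7.13 and 5.77 (2.57-fold), so all 3 were higher in the colon. Ces2b had 9.76 in colon RNA and 7.42 in small intestinal RNA (5.08-fold). Ces1f had 11.73 and 10.09 (3.12-fold), close to the limit, from a probe set of the kind that can match several transcripts, and its difference was -1.39, under 3-fold, after centring on the mean of the spike-in controls.

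Only Ces2e among the esterases passed 3-fold in the small intestine, with 12.72 there and 10.97 in the colon (3.37-fold). Ces2a, of the same subfamily, had 12.56 in colon RNA and 11.46 in small intestinal RNA (2.14-fold). Both were above background in both tissues and went in opposite directions. Of the rest, Ces1e (7.37 in colon RNA and 7.51 in small intestinal RNA) and Ces5a (5.72 and 5.86) were near equal. The value of Ces5a came from a probe set some of whose probes match other sequences. Its other probe sets were at background on both arrays. Ces2g had 6.96 in colon RNA and 7.58 in small intestinal RNA (1.53-fold). Ces1c, the esterase of blood plasma, had 4.50 in colon RNA and 5.43 in small intestinal RNA, and so passed background in the latter only, by little. A probe set naming both Ces3a and Ces3b was at background.

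**Figure D2:**
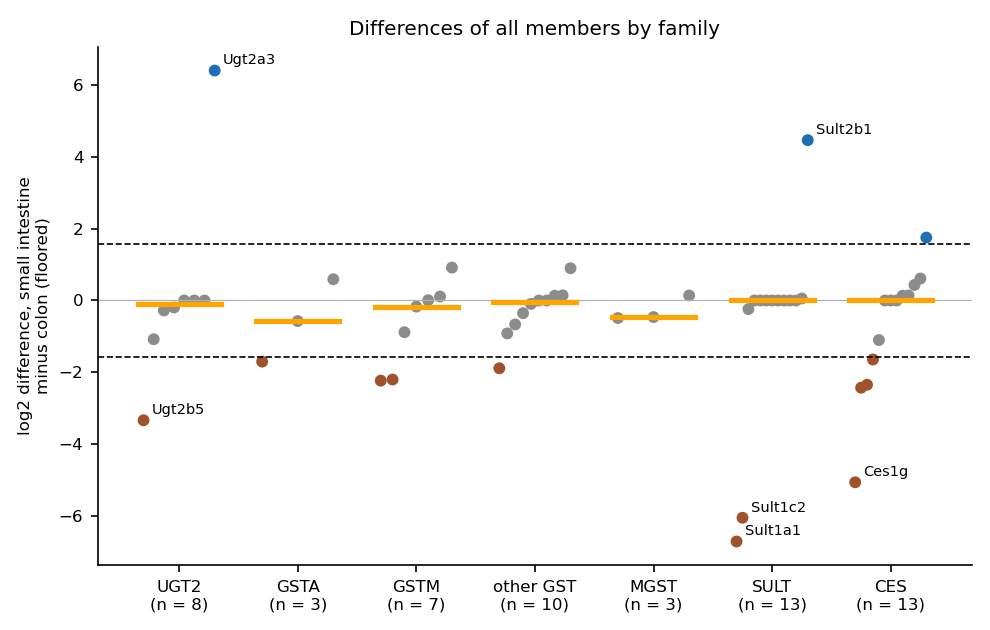
Log2 difference of the small intestine minus the colon for all 57 members by family, with values below 5 raised to 5. Orange bars are family medians, dashed lines mark 3-fold, and points at 0 are mostly members at background on both arrays. Medians lie between -0.57 for Gsta and 0 for Sult and Ces, and Ugt2a3 at 6.40 and Sult1a1 at -6.71 are the extremes.

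Most soluble glutathione S-transferases were expressed in both tissues, with the mu class split. Gstm1 had 10.32 in colon RNA and 8.09 in small intestinal RNA (4.69-fold). A second of its 4 probe sets, with no mark of cross-matching, gave 10.25 and 8.12 (4.37-fold), another 6.79 and 5.23 (2.96-fold), and the fourth was at background. Gstm2 had 8.48 and 6.28 (4.59-fold). These members of the mu class were higher in the colon by like amounts, and cross-matching between the probe sets of these similar genes was not tested. Gstm3 was the higher in the small intestine, with 10.44 there and 9.53 in the colon (1.89-fold, not past the limit), from a probe set marked as matching several transcripts, while its unmarked probe set was at background. Gstm5 had 9.61 in colon RNA and 8.73 in small intestinal RNA. Gstm4 (6.53 in both) and Gstm7 (6.18 in colon RNA and 6.01 in small intestinal RNA) hardly differed. A second probe set of Gstm7 was at background on both arrays. Gstm6 had 3.96 in colon RNA and 5.11 in small intestinal RNA, barely above background in the latter. The median of the 7 mu members was -0.17.

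The alpha class was also split, and here a shared probe set mattered. Gsta3 had 8.86 in colon RNA and 7.16 in small intestinal RNA (3.25-fold higher in the colon), and its second probe set 5.09 and 3.57. Its difference was -1.45, under 3-fold, after centring on the mean of the spike-in controls. Gsta4, which removes the lipid peroxidation product 4-hydroxynonenal, had 10.15 and 9.57. Gsta2 alone had 5.63 in colon RNA and 6.22 in small intestinal RNA (1.51-fold), but a probe set that names Gsta1, Gsta2 and Gm3776 together had 9.92 and 12.23 and was 4.98-fold higher in the small intestine. Which of these 3 near-identical genes gave that signal is not known, and Gsta1 had no probe set of its own. The window before the start of Gsta3 (chr1:21240335-21240584, plus strand) was the only one among the members past 3-fold with a window to hold TGACNNNGC, 121 bases before the start, and it also held GTTAAT on the opposite strand at 149 bases.
Gsta3: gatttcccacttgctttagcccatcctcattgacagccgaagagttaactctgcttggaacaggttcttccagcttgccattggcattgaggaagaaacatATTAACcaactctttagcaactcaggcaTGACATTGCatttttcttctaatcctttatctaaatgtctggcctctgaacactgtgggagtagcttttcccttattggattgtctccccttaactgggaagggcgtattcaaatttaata

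Gstk1, the kappa class enzyme of mitochondria and peroxisomes, had 10.53 in colon RNA and 8.64 in small intestinal RNA (3.70-fold higher in the colon). It was the only member of the remaining classes counted at 3-fold. The pi class enzyme Gstp1 had 13.55 in colon RNA and 13.46 in small intestinal RNA, and Gstp3 had 4.08 and 5.90, above background in the small intestine only (at least 1.86-fold). Gsto1 of the omega class, which reduces dehydroascorbate, had 12.88 and 13.01, while its unmarked probe set had 12.39 and 11.70. The theta class was higher in the colon in its 3 members above background, none past 3-fold, with 9.86 and 9.19 for Gstt1, 9.50 and 9.15 for Gstt2 and 7.12 and 6.20 for Gstt3. The colon was the brighter for 53.2% of all genes above background. Gstz1, the zeta class isomerase of tyrosine breakdown, had 6.47 and 6.61. Gsto2 and Gstt4 were at background. In the microsomal family, which is bound to membranes and unrelated in sequence to the soluble enzymes, Mgst1 had 13.26 in colon RNA and 13.40 in small intestinal RNA, Mgst2 had 13.33 and 12.84, and Mgst3 had 12.43 and 11.97. All 3 were above background in both tissues, with differences of less than 1.5-fold. A second probe set of Mgst1 and a second of Mgst3, both unmarked, were at background on both arrays.

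Of the 57 members, 44 had a single probe set naming 1 gene and 13 had several. The probe set that stood for the gene carried a mark for 15 members, of which 8 had _a (several transcripts of a gene), 3 had _s (several transcripts or genes) and 4 had _x (some probes match other sequences). Besides, 6 probe sets named more than 1 gene, and 13 genes were named by these alone, 8 of them of the Ugt1a locus. RefSeq lists 84 protein-coding genes with these symbols, and the other 14 were named by no probe set under these symbols.

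**Figure D3:**
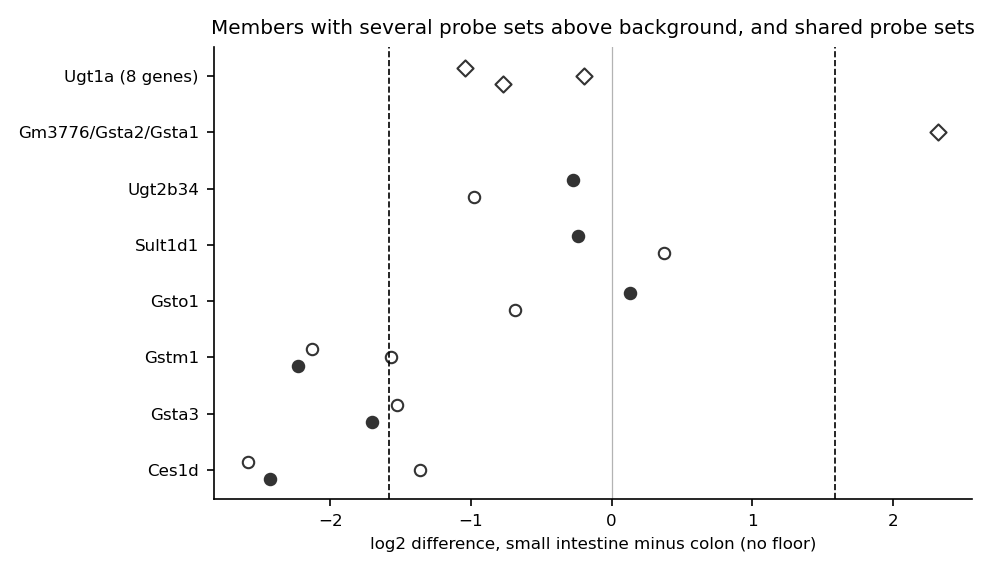
Log2 difference of the small intestine minus the colon, with no floor, for probe sets above background. Circles are probe sets naming 1 gene, filled where they stand for it, and diamonds are probe sets naming several genes, with dashed lines at 3-fold. The probe sets of Ces1d, Gstm1 and Gsta3 all lie on the side of the colon, those of Sult1d1 and Gsto1 lie on both sides of 0, and the diamond of Gsta1, Gsta2 and Gm3776 lies at 2.32.

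Many members lie side by side in the genome, and direct neighbours differed in their pattern. Along chromosome 5, in the order of RefSeq (GRCm38.p6), Ugt2b34, Ugt2b1, Ugt2b35, Ugt2b36, Ugt2b5, Ugt2b37, Ugt2a3 and Ugt2b38 are followed by Ugt2a1, Ugt2a2, Sult1b1, Sult1d1 and Sult1e1. Ugt2b37, dark on both arrays, thus lies between Ugt2b5, which was higher in the colon, and Ugt2a3, which favoured the small intestine, and the Sult1 genes at the end were even between tissues (Sult1b1, Sult1d1) or dark (Sult1e1). In the mu cluster of chromosome 3, Gstm2 and Gstm1 are adjacent and both were higher in the colon, with Gstm3 before and Gstm4 after them at less than 3-fold. On chromosome 8, Ces1d, Ces1f and Ces1g were higher in the colon with Ces1e between the first and the second of them near equal. Ces2b (colon) and Ces2e (small intestine) are separated in the other esterase cluster by Ces2c, which no probe set named under this symbol.

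**Figure D4:**
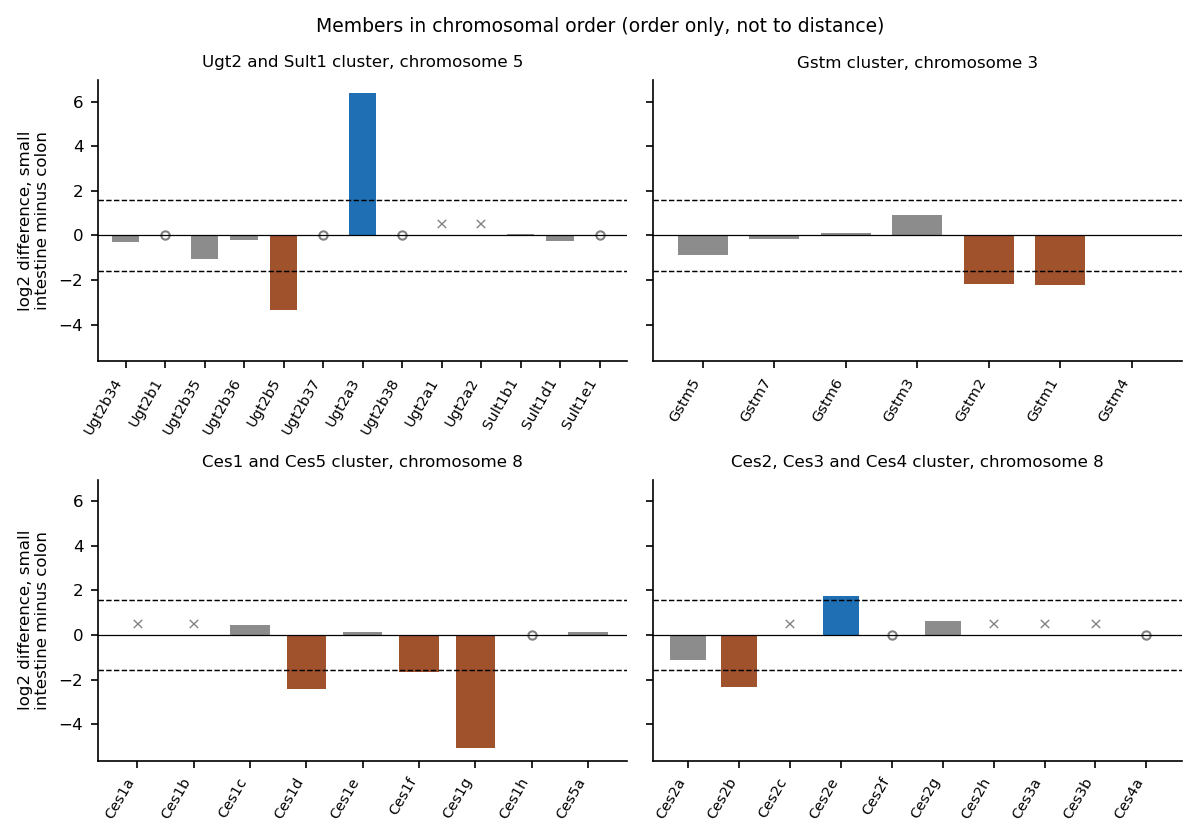
Log2 difference of the small intestine minus the colon (floored) for members in their order along a chromosome in 4 gene clusters, with distances not drawn to scale. Brown bars are higher in the colon and blue bars in the small intestine at 3-fold (dashed lines), grey bars are under 3-fold, open circles are at background on both arrays and crosses have no probe set of their own. In the cluster of chromosome 5 the bar of Ugt2b5 reaches -3.33 and that of Ugt2a3 6.40, with Ugt2b37 at background between them.

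The motifs were counted over members and over all genes, a gene counting once if any of its windows held the motif. Windows of 250 bases were found for 50 of the 57 members, some with more than 1 annotated start. The antioxidant response core was in a window of 4 of the 50 members and 11.5% of all 27025 genes with a window, the Hnf1 half-site in 5 members and 7.49% of genes, and the Hnf4 site in 0 members and 0.451% of genes. The dioxin response core was in 9 members and 30.9% of genes, and TATAAA in 8 members and 14.3% of genes. The letters of different motifs overlapped in a window of Gstm5 only. Among the 8 members higher in the colon with a window, GTTAAT was in 2 (Sult1a1, Gsta3), TATAAA in 2 (Ces1g, Gstm1) and GCGTG in 1 (Gstm1). Of the 3 higher in the small intestine, Ugt2a3 held GTTAAT and Sult2b1 GCGTG. A match is a run of letters and not a site that was shown to be used.

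Genes that supply the sugar and sulfate donors differed by member. Of 12 measured genes of donor supply, 2 favoured the colon and 1 the small intestine (median -0.46), where 3.33% and 3.46% of all genes did. Slc26a2, a sulfate transporter, had 13.42 in colon RNA and 11.35 in small intestinal RNA (4.22-fold), and Slc35d1, which brings UDP-glucuronic acid into the endoplasmic reticulum, 10.60 and 8.56 (4.10-fold). Ugdh, which makes UDP-glucuronic acid, had 14.16 and 12.60 (2.95-fold), just under the limit. Bpnt1, which clears the product left after sulfation, had 10.86 in colon RNA and 12.52 in small intestinal RNA (3.16-fold). The PAPS synthase Papss2 had 12.43 and 12.05, and Ugp2, which makes UDP-glucose, 12.55 and 11.63.

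Genes of glutathione turnover had their differences past 3-fold in the small intestine. Of 22 measured, 6 favoured it and 0 the colon (median 0.28), beside 3.46% and 3.33% of all genes and 5.71% and 5.49% of those above background. Anpep, a brush border peptidase that also splits the dipeptide left from glutathione, had 12.95 in small intestinal RNA and 3.72 in colon RNA (at least 247-fold). It is also among the markers of small intestinal enterocytes counted above. Nat8, which acetylates cysteine conjugates in the last step to mercapturic acids, had 10.41 and 3.98 (at least 42.5-fold). The transporter subunit Slc3a2 (9.55-fold), glutathione reductase Gsr (10.76 in small intestinal RNA and 8.76 in colon RNA), Ggct (3.42-fold) and the glutamate and cysteine transporter Slc1a1 (3.30-fold) followed. Gclc, the catalytic subunit of the first step of glutathione synthesis, went towards the colon, with 10.21 there and 9.13 in the small intestine (2.11-fold). So did Gss, also of glutathione synthesis, with 10.91 and 9.78 (2.18-fold), while Gclm, with 10.15 and 10.05, hardly differed. Gpx1 (12.72 in colon RNA and 12.27 in small intestinal RNA), Hagh (12.52 and 12.35) and Gpx4 (11.81 and 12.56) were under 2-fold.

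Export pumps differed by member. Of 9 measured, 1 favoured the small intestine and 2 the colon. The shares were 3.46% and 3.33% of all genes, and 5.71% and 5.49% of those above background. Abcc2 of the apical membrane had 9.12 in small intestinal RNA and 3.65 in colon RNA (at least 17.4-fold). In contrast, Abcb1a had 13.18 in colon RNA and 11.01 in small intestinal RNA (4.52-fold) and Abcc1 9.08 and 6.98 (4.30-fold). Under 3-fold were Abcg2, with 12.04 in colon RNA and 12.30 in small intestinal RNA, Abcc3 (8.98 and 7.53) and Abcc5 (6.38 and 7.52). Of 35 other conjugating, hydrolysing and related genes, 3 favoured the colon and 1 the small intestine, the latter near the 3.46% of all genes and the former beside 3.33% (5.49% of those above background). The sulfurtransferase Tst had 10.05 in colon RNA and 5.72 in small intestinal RNA (20.1-fold), the paraoxonase Pon3 9.99 and 7.74 (4.77-fold), and the sulfatase Arsb 8.47 and 6.45 (4.06-fold). The epoxide hydrolase Ephx2 had 11.93 in small intestinal RNA and 8.67 in colon RNA (9.63-fold). The brightest of those under 3-fold were Pon2 (12.60 in colon RNA and 12.08 in small intestinal RNA), Clic1 (11.06 and 11.57) and Clic4 (10.60 and 10.38).

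Of 26 measured sensors and other regulators, 4 favoured the small intestine and 3 the colon, beside the 5.71% and 5.49% of genes above background. One of the 4, Cyb5r3, is a cytochrome b5 reductase and no regulator, and 3 are left without it. The xenobiotic receptor Nr1i3 (CAR) had 7.77 in small intestinal RNA and 3.63 in colon RNA (at least 6.81-fold), while its relative Nr1i2 (PXR) had 7.73 and 6.59 (2.20-fold). Hnf4g (at least 13.4-fold), Cyb5r3 (4.66-fold) and Bach1 (3.33-fold), a repressor of antioxidant response elements, were higher in the small intestine, and Foxa1 (9.87-fold), Foxa2 (4.26-fold) and the bile acid receptor Nr1h4 (3.32-fold) in the colon. Nfe2l2 (Nrf2), the activator of antioxidant response elements, had 12.00 in colon RNA and 11.28 in small intestinal RNA, Hnf4a had 12.33 and 12.22, the vitamin D receptor Vdr 10.59 and 9.95, and Ahr 8.85 and 8.47, all under 2-fold.

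**Figure D5:**
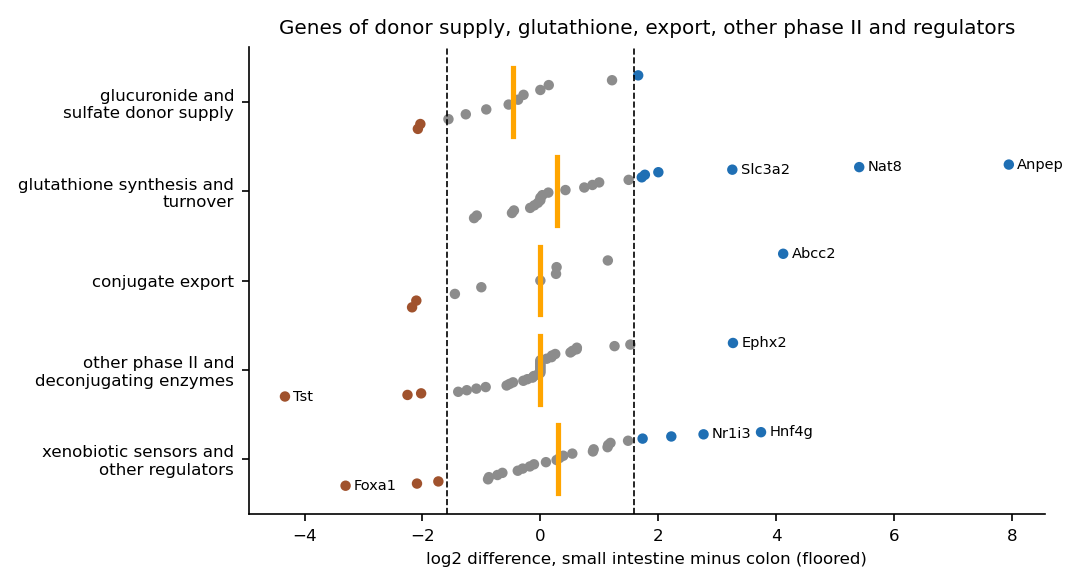
Log2 difference of the small intestine minus the colon (floored) for each measured gene of 5 lists around conjugation, with orange bars at list medians and dashed lines at 3-fold. Blue points favour the small intestine and brown points the colon. In the glutathione list all points past 3-fold lie to the right, up to Anpep at 7.95, and Tst at -4.33 lies farthest to the left.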

How the data were processed

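Total RNA (Qiagen RNeasy) was labelled and hybridised by the authors to Affymetrix Mouse Genome arrays, 1 per tissue. The deposited values are log2 expression per probe set, normalized by the authors with GCRMA per the labels. RMA is what the paper's methods give, for arrays of another series, so which was used is not certain, and GCRMA can widen folds against dim values. Its version is not given in the sources used. Probe sets were named by the platform's annotation table, and all 57 members matched RefSeq GRCm38.p6 by Entrez identifier and no symbol changed. The brightest probe set naming 1 gene stood for it. Values below 5 were raised to 5, and a difference of 3-fold was counted. The study used this fold, for its small sample set, on sequencing levels and not on arrays. It also added 1 to the level of the other tissue, which was not done here. A fold against a background value is a lower bound. Of 18 probe sets of hybridization spike-in controls, the 4 of bioC had differences (small intestine minus colon) of -1.52 to -1.39 and the others of -0.08 to 0.33. The number of arrays limits the precision. Members and gene lists were chosen with earlier results of these data known. Every member above background is named, with all pathway genes past 3-fold and the 3 others of highest mean level per list. Gclc, Gclm, Gss, Nr1i2 and Ahr were added after their values were seen. TATAAA was added to the motifs after the data were seen. Promoter windows run towards the start, since TATAAA began 35 to 25 bases before it 576 times and 235 to 225 bases before it 114 times. Python 3.11.15 with numpy 2.4.6, pandas 2.3.3 and matplotlib 3.10.9 was used.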

Additional observations from a re-analysis of the deposited data

How the results depend on the processing

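Floors of 4 and 6, no floor, quantile normalization, centring on the median or on the median of the spike-ins, and the median over probe sets left the 11 members of the colon and the 3 of the small intestine past 3-fold, and Gstp3 joined the latter with a floor of 4 or none (1.82). Without probe sets marked _x, _s or _a no probe set was left for Sult1a1 and Ces1f, and medians moved to -1.14 for Gsta and -0.67 for the remaining classes of soluble Gst. Without those marked _x or _s, and after centring on the mean of the spike-ins (their mean difference was -0.25), alternatives chosen after seeing the data, 10 and 9 members were higher in the colon. With probe sets naming several genes included, 5 genes favoured the small intestine, Gsta1 and Gsta2 being added, and the Gsta median was 0.87. At 5-fold, 6 members favoured the colon and 2 the small intestine, and at 2-fold 13 and 3. The share of all genes in each direction was not counted at these folds. Of those above background, 75.1% of genes and 61.0% of members differed by less than 2-fold. No member past 3-fold changed direction under these alternatives. No paired analysis was possible because each tissue has 1 array.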

Other observations

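The genes beside the 14 members past 3-fold were also read, by a rule set after the data were seen, taking the nearest 2 named and measured protein-coding genes on each side in the RefSeq order. Of 22 such genes that are not members themselves, 16 were above background, 3 favoured the colon by 3-fold and 0 the small intestine, beside 3.33% and 3.46% of all genes and 5.49% and 5.71% of those above background. Of these 3, Nupr1, a stress-induced nuclear protein, had 13.30 in colon RNA and 10.40 in small intestinal RNA, and Sgf29 had 10.42 and 8.57. Both lie on the same side of Sult1a1. On its other side Slx1b had 5.69 in colon RNA and 4.11 in small intestinal RNA, and Bola2 10.72 and 9.77. All 4 neighbours of Sult1a1 were thus brighter in the colon, Bola2 by less than 3-fold and Slx1b by an unknown fold, its level in the small intestine being background. Among all genes above background on either array, 53.2% were brighter in the colon. Sval1, near Gstk1, had 13.59 in colon RNA and 5.78 in small intestinal RNA. The neighbours of Sult2b1 that were above background did not reach 3-fold in either direction, with 9.97 in colon RNA and 8.84 in small intestinal RNA for Fam83e and 7.19 and 7.68 for Cyth2, nor did those of Sult1c2, with 6.89 and 7.05 for Sgo1 and 10.74 and 10.25 for Kat2b.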
